A study of Mus musculus with 4 samples.

Results

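Aminoacyl-tRNA synthetases join each amino acid to its transfer RNA, the step that supplies the ribosome with building blocks. The genes described here are 35 named members of this family, matched by symbol in a table of 25759 gene symbols. All 35 were found and all 35 passed the filter on low counts. By symbol, 20 encode the cytosolic enzymes and 15, whose symbols end in 2, encode the enzymes imported into mitochondria. The labels gave 2 groups of alveolar epithelial type II cells, which line the lung alveoli and secrete surfactant, and the mice were C57BL/6 and 14 weeks old. WT cells came from wild type mice (2 libraries), and mTOR Tg (transgenic) cells came from mice whose genotype label is Sftpc-mTOR transgenic (2 libraries). The series describes the transgene as a conditional active form of mTOR in the epithelium. What turns it on, the sex of the mice and any pooling of animals were not given in the sources used here.

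Most amino acids have one synthetase gene for the cytosol and another for the mitochondrion. Gars (glycine) and Kars (lysine) each supply both compartments from a single gene, Eprs carries the glutamate and proline activities in one protein, and Farsa and Farsb encode the subunits of the cytosolic phenylalanine enzyme. Several cytosolic enzymes are held together in a multisynthetase complex by the scaffold proteins encoded by Aimp1, Aimp2 and Eef1e1. mTOR complex 1 is the nutrient-sensing kinase complex that promotes protein synthesis, and it can raise the translation of the transcription factor ATF4. ATF4 activates many cytosolic synthetase genes together with genes of amino acid synthesis and uptake. The comparison asks how the transcripts of this family differ between WT type II cells and type II cells carrying the mTOR transgene, whose activity these tables do not measure.

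The 4 libraries held 18146693 to 21972124 counts, and the synthetase genes had between 108 and 3545 counts in a library. The type II genes were abundant in all libraries (Sftpc had 1207205 to 1541442 counts), while the leukocyte genes Cd3e and C1qb had 0 counts in each and Ptprc had 0 to 3. Without Lyz2, which mouse type II cells also express, the summed leukocyte markers were 2.94 to 4.68 CPM (counts scaled to the library total). The transgenic replicate 1 library stood apart: its log2 CPM correlated with those of the other libraries at 0.951 to 0.954 across genes, against 0.983 to 0.988 among the others. It also had more airway transcripts, with 161000 CPM summed over 7 club cell markers against 55800 to 90300 CPM in the other libraries. The 7 ciliated cell markers summed to 2450 CPM in it and to 1030 to 1200 CPM in the others, and the 9 type II markers to 102000 CPM against 108000 to 130000 CPM. Sums of the endothelial, type I and mesothelial marker lists followed the genotype. The 8 endothelial markers were at 161 and 163 CPM in WT and at 99.5 and 105 CPM in transgenic cells, and the 7 type I cell markers at 1890 and 1790 CPM and at 2190 and 2020 CPM. Mesothelial sums (5 markers) were low, with 9.48 and 18 CPM for WT, then 27.5 and 20.5 CPM for the transgenic pair. Their nearest values, 18 and 20.5 CPM, were closer together than the WT replicates. What these marker lists contribute to the results was not tested. In bulk RNA, fewer cells of a type and less RNA per cell cannot be told apart. The kinase gene Mtor was at 56.7, 56.7, 38.8 and 61.8 normalised CPM in the WT pair and then the transgenic pair. No source used here says whether transgene reads fall under that symbol, so these values are no check of the labels.

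No synthetase gene passed the test between genotypes. The edgeR quasi-likelihood test called 0 of the 20 cytosolic and 0 of the 15 mitochondrial genes at an adjusted p of 0.05, where the share called among all 13306 genes was 0%. At an unadjusted p under 0.05 there was 1 of 35 members, Cars, against 2.46% of all genes. DESeq2 called 0 members and 0.0902% of all genes, and limma-voom called 0 genes. Levels are given as normalised CPM, the count scaled to TMM-adjusted library totals. Among the cytosolic genes 17 of 20 had a positive log2 fold change (mTOR Tg over WT), where 50.9% of all tested genes were positive. The mitochondrial genes, with 9 of 15 positive, were near that share. The groups did not overlap, with the transgenic pair on top, in 8 cytosolic genes (40%) and 6 mitochondrial genes (40%), where 17.6% of all genes did so. The transgenic pair was the lower in 0 cytosolic and 2 mitochondrial genes (13.3%), against 17% of all genes.

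**Figure D1:**
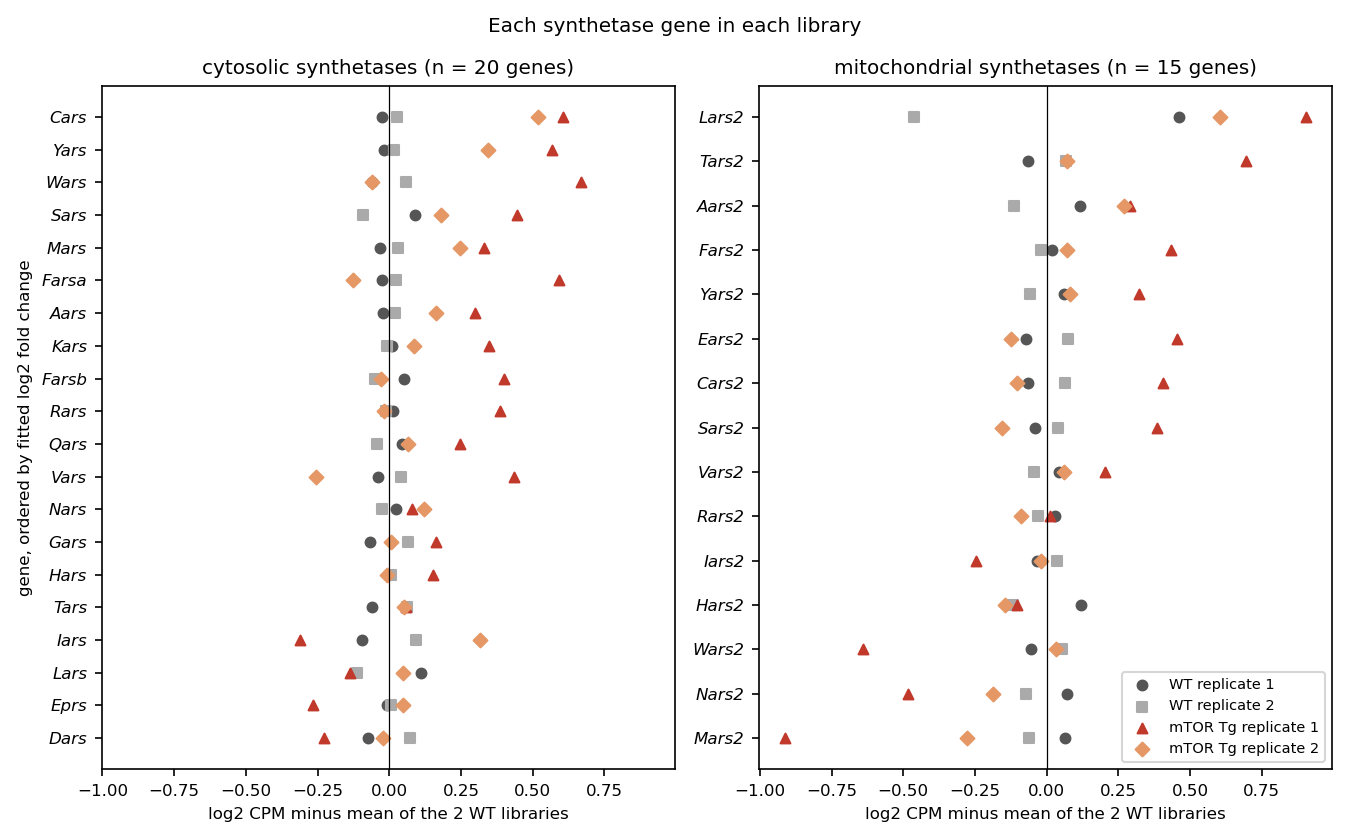
Log2 CPM of each synthetase gene in each library minus the mean of the WT libraries (horizontal axis), with genes ordered by fitted log2 fold change; circles and squares are the WT libraries, triangles and diamonds the transgenic libraries. In Cars and Yars both transgenic libraries sit to the right of both WT libraries, whereas in Wars, Farsa and Vars the transgenic replicate 1 library alone does, and Lars2 has the widest gap between the WT libraries.

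The positive cytosolic values came mainly from transgenic replicate 1. The median of the cytosolic genes lay 0.31 above the WT mean on the log2 scale in that library and 0.05 above in transgenic replicate 2. The WT replicates differed by 0.04 (replicate 2 minus replicate 1). In transgenic replicate 1, 16 of the 20 cytosolic genes were above the WT mean, against 50.8% of all genes, and in transgenic replicate 2 it was 13 of 20, against 49.9%. The fitted median over the cytosolic genes was 0.18, with a range of -0.12 to 0.56 and standard errors of 0.18 to 0.29, and the median of all tested genes was 0.01. Without transgenic replicate 1 the cytosolic median was 0.05, with 13 of 20 positive, and without transgenic replicate 2 it was 0.31, with 16 of 20 positive. Summed over the 20 cytosolic genes, normalised CPM were 1093 and 1105 in WT and 1328 and 1149 in transgenic cells, that is 1099 ± 8.44 and 1239 ± 126 (SD, n = 2 each). The transgenic libraries thus differed from each other by more than transgenic replicate 2 differed from WT.

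Cars, the cysteinyl-tRNA synthetase gene (chromosome 7, 143557230 to 143600090, GRCm38), had the smallest p of the family. It was at 27.4 and 28.4 normalised CPM in WT and at 42.5 and 40.0 in transgenic cells. The groups did not overlap, and the 2 transgenic libraries lay close together. The log2 fold change was 0.56 (SE 0.19, edgeR unadjusted p = 0.0276, adjusted p = 0.86). It stayed between 0.52 and 0.61 with any 1 library left out. Cars was the only synthetase called in the fit without transgenic replicate 1 (edgeR adjusted p = 0.0446), where 2.2% of all genes were called from a single transgenic library, taken to vary as WT does.

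Yars, the tyrosyl-tRNA synthetase gene on chromosome 4 (129189760 to 129219607), had 25.9 and 26.5 CPM in the WT pair and 38.9 and 33.3 in the transgenic pair. Its log2 fold change was 0.46 (SE 0.20, edgeR adjusted p = 0.86), and both transgenic libraries stood clear of the WT pair. The methionine enzyme gene Mars, a member of the multisynthetase complex, was at 40.2 and 41.9 CPM in WT and at 51.6 and 48.8 in transgenic cells (log2 fold change 0.29, SE 0.19). The serine enzyme gene Sars was at 104 and 91.7 CPM in WT and at 133 and 111 in transgenic cells (0.32, SE 0.21). For Sars the nearer transgenic library was closer to WT replicate 1 than the WT replicates were to each other. The alanine enzyme gene Aars was at 91.6 and 94.3 CPM in WT and at 114 and 104 in transgenic cells (0.23, SE 0.19). Kars was at 51.0 and 50.4 CPM in WT and at 64.6 and 53.8 in transgenic cells, with most of the gap in replicate 1. Qars, for glutamine, was at 70.7 and 66.6 CPM and at 81.5 and 71.8, and Nars, for asparagine, at 90.8 and 87.9 CPM and at 94.3 and 97.2. These last 2 genes did not overlap between groups by small margins, 71.8 against 70.7 for Qars and 94.3 against 90.8 for Nars.

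A further set of cytosolic genes was high in transgenic replicate 1 alone. Wars, the tryptophan enzyme gene that interferon induces, was at 78.1 and 84.9 CPM in WT, 129 in transgenic replicate 1 and 78.1 in replicate 2. Its log2 fold change of 0.35 (SE 0.28) became -0.06 without transgenic replicate 1. The valine enzyme gene Vars was at 125 and 132 CPM in WT, 174 in transgenic replicate 1 and 108 in replicate 2, so its transgenic libraries lay on opposite sides of WT. The phenylalanine subunit genes showed the same pattern. Farsa was at 25.6 and 26.5 CPM in WT, 39.2 in transgenic replicate 1 and 23.8 in replicate 2. Farsb was at 23.9 and 22.3 CPM in WT, 30.5 in transgenic replicate 1 and 22.6 in replicate 2. Rars, the arginine enzyme gene, was at 21.7 and 21.3 CPM in WT, 28.1 in transgenic replicate 1 and 21.2 in replicate 2, and its log2 fold change of 0.20 (SE 0.23) became -0.02 without transgenic replicate 1. The part of the airway cells whose markers were high in transgenic replicate 1 was not tested for these genes.

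Other cytosolic genes showed the reverse pattern or little difference. Eprs was at 79.1 and 79.8 CPM in WT, 66.2 in transgenic replicate 1 and 82.1 in replicate 2. Iars, the isoleucine enzyme gene, was at 32.7 and 37.2 CPM in WT, 28.0 in transgenic replicate 1 and 43.5 in replicate 2. Its log2 fold change of 0.03 (SE 0.27) therefore averages libraries that lay below and above both WT libraries. Gars was at 56.9 and 62.4 CPM in WT and at 66.7 and 59.8 in transgenic cells, with overlapping groups. The other 4 cytosolic genes (Dars, Hars, Lars and Tars) had log2 fold changes of -0.12, 0.07, -0.05 and 0.05 in that order, and their groups overlapped.

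**Figure D2:**
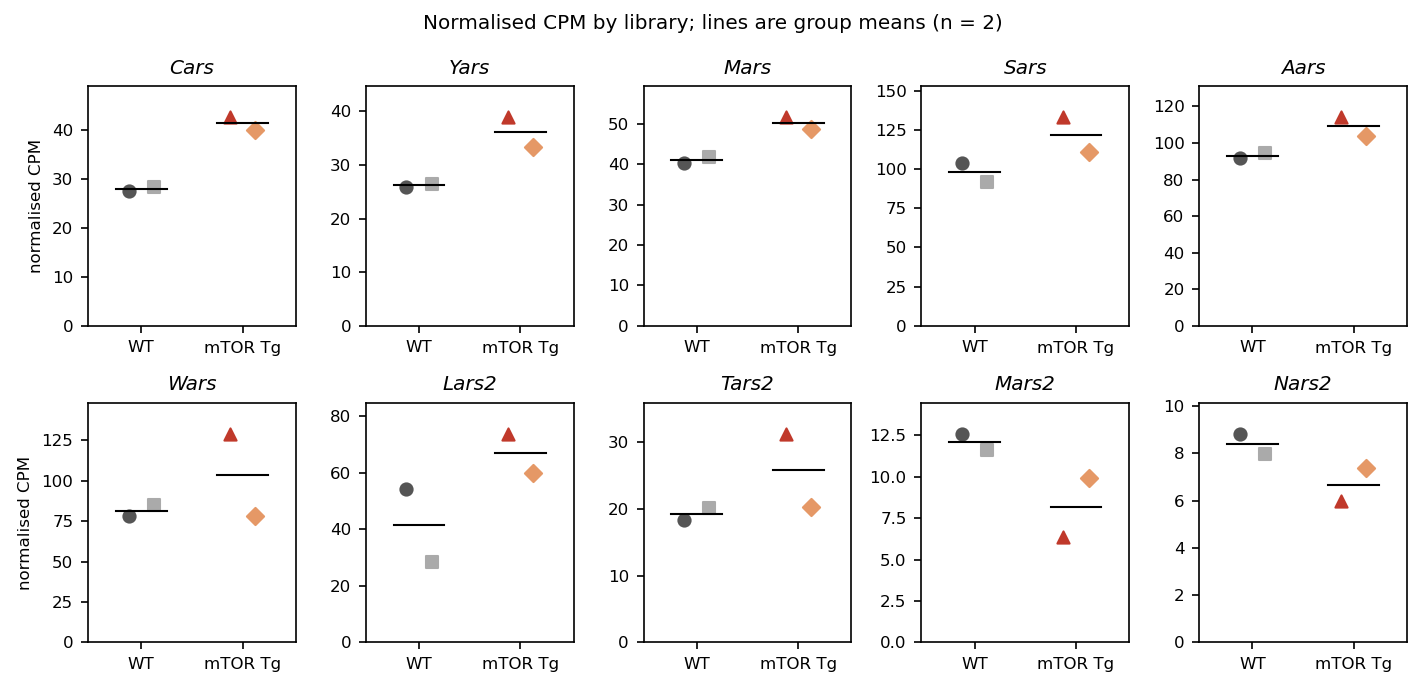
Normalised CPM (vertical axis, from 0) of 10 synthetase genes in each library, with WT replicates 1 and 2 as circle and square, transgenic replicates 1 and 2 as triangle and diamond, and lines at the group means (n = 2). Cars stands at 27.4 and 28.4 CPM in WT and at 42.5 and 40.0 in transgenic cells, while Wars reaches 129 CPM in transgenic replicate 1 alone.

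The lists of ATF4 targets give a second way to divide the cytosolic genes. Of the 20, 13 are commonly listed as ATF4 targets (Aars, Cars, Eprs, Gars, Iars, Lars, Mars, Nars, Sars, Tars, Vars, Wars and Yars) and 7 are not (Dars, Farsa, Farsb, Hars, Kars, Qars and Rars). In transgenic replicate 1 the medians of these sets were 0.30 and 0.35 above the WT mean, and 0.27 and 0.12 once a trend of the level with transcript length in that library was removed. In transgenic replicate 2 the ATF4 targets lay 0.12 above WT, with 11 of 13 above, and the others -0.02, with 2 of 7 above. Members with both transgenic libraries above both WT libraries came to 6 of 13 (46.2%) and 2 of 7 (28.6%), where 17.6% of all genes did so. The difference between these sets was not tested.

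ATF4 acts through a composite C/EBP-ATF response element whose core was searched for as the letters TGATGNAA, where N is any base, on both strands and with overlapping matches kept. The search covered RefSeq promoters of GRCm38.p6, from 250 bases before to 50 bases after each annotated start. Promoters were found for 27 of the 35 genes. The core was present in 5 of 13 cytosolic genes with a promoter (38.5%) and in 0 of 14 mitochondrial genes, against 3.97% of all 32851 promoters. The shares of the 2 lists count genes, whereas the share over all promoters counts promoter entries, and a gene can have more than 1. Matches are shown, 1 for each gene, because they mark the synthetase genes that carry this sequence beside the gene start. Each line gives 30 bases read on the strand of the gene, with the core in capitals.
Aars, chr8:111033840-111033869, plus strand: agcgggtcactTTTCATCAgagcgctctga
Gars, chr6:55037960-55037989, plus strand: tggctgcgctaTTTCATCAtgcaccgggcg
Iars, chr13:49682126-49682155, plus strand: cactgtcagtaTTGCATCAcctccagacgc
Tars, chr15:11399655-11399684, minus strand: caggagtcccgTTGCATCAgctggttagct
Yars, chr4:129189895-129189924, plus strand: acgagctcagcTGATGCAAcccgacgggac

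In Yars the core reads in the direction of the gene, and in the other 4 genes it lies on the opposite strand. Counting from the annotated start, its first base lay at 10 in Aars, -30 in Gars, -15 in Tars, 8 in Iars and 4 in Yars. A match is a description of the letters and not a measured binding site. The 5 genes did not share one pattern of expression. Yars lay 0.57 and 0.34 above the WT mean in transgenic replicates 1 and 2, Aars 0.30 and 0.16, Gars 0.16 and 0.01, Tars 0.06 and 0.05, and Iars -0.31 and 0.32. No promoter of Cars was matched.

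Targets of ATF4 outside the family had medians above WT in both transgenic libraries. The 25 genes of this list serve amino acid synthesis, amino acid uptake and the stress response, and 0 passed the adjusted threshold. Over WT their median was 0.44 and 0.45 in the transgenic pair, with 20 of 25 positive and both transgenic libraries above both WT libraries in 14 of 25 (56%, against 17.6% of all genes). With the trend in transcript length removed the medians were 0.25 and 0.47, with 16 and 19 of the 24 genes of known length above WT. This list was chosen with earlier results of these data known. The asparagine synthetase gene Asns, which makes an amino acid rather than charging a tRNA, was at 13.4 and 15.8 CPM in WT and at 26.2 and 20.5 in transgenic cells. Mthfd2, of mitochondrial folate metabolism, was at 1.48 and 1.57 CPM in the WT pair and 4.07 and 5.69 in the transgenic pair, and Atf5, a relative of Atf4, was at 35.4 and 34.9 against 69.0 and 58.8. Other targets differed between the transgenic libraries. Slc7a11 was at 2.41 and 2.63 CPM in WT, 2.65 in transgenic replicate 1 and 55.2 in replicate 2. Cebpb was at 79.7 and 87.8 CPM in WT, 225 in transgenic replicate 1 and 81.3 in replicate 2. The 5 targets with a negative log2 fold change were Aldh1l2, Ddit4, Sesn2, Vldlr and Cth. Atf4 itself was at 116 and 115 CPM in WT, 168 in transgenic replicate 1 and 81.2 in replicate 2. In transgenic replicate 1, where Atf4 was above WT, its listed synthetase targets had a median of 0.30. In replicate 2, where Atf4 was below WT, their median was 0.12. A link between these values was not tested.

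**Figure D3:**
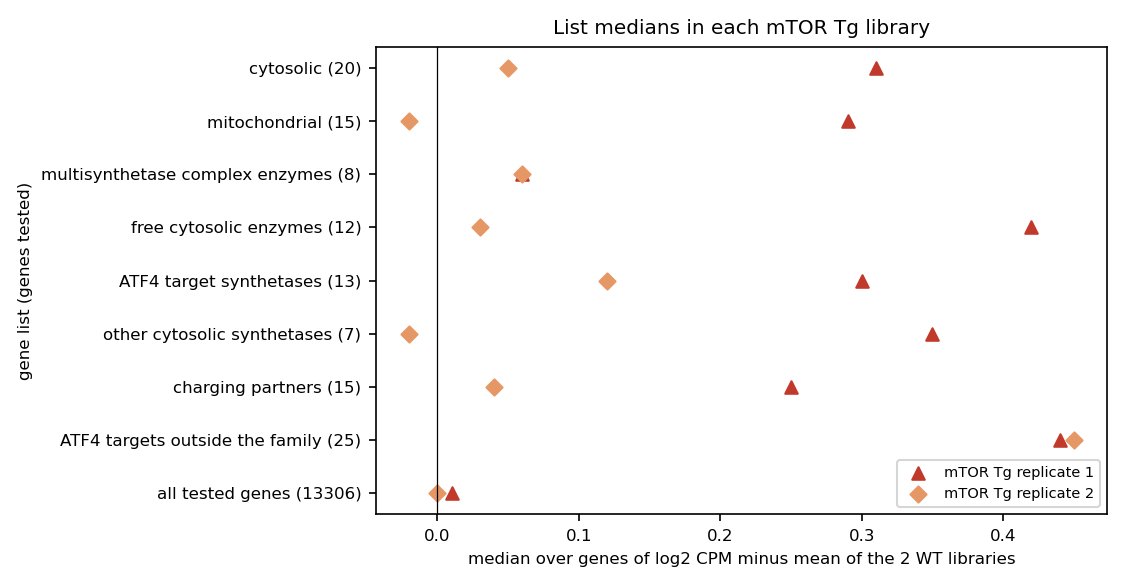
Median over the genes of each list of log2 CPM minus the mean of the WT libraries, with transgenic replicate 1 as triangles and replicate 2 as diamonds and the number of genes tested in brackets. The cytosolic and mitochondrial synthetases lie at 0.31 and 0.29 in replicate 1 and at 0.05 and -0.02 in replicate 2, while the ATF4 targets outside the family lie at 0.44 and 0.45.

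Enzymes of the multisynthetase complex had a lower median than the free cytosolic enzymes in transgenic replicate 1, with overlapping values. The 8 complex enzymes (Dars, Eprs, Iars, Kars, Lars, Mars, Qars and Rars) had a median of 0.06 above WT in that library, with 4 of 8 above. The 12 free enzymes had a median of 0.42, with 12 of 12 above, against 50.8% of all genes. The complex members Rars (0.38), Kars (0.35) and Mars (0.33) lay above the free enzymes Tars (0.06), Nars (0.08) and Hars (0.15), and the difference between the sets was not tested. With the trend in transcript length removed, 6 of 8 complex enzymes and 10 of 12 free enzymes were above WT in transgenic replicate 1. In transgenic replicate 2 the medians were 0.06 and 0.03. In summed normalised CPM the complex enzymes were at 373.4 and 373.8 in WT and at 387.9 and 398.9 in transgenic cells. The free enzymes were at 719.5 and 730.9 in WT, 940.0 in transgenic replicate 1 and 750.5 in replicate 2. The scaffold gene Aimp1 was at 22.4 and 21 CPM in WT and at 27.4 and 24.2 in transgenic cells (log2 fold change 0.25, SE 0.20). Aimp2 was at 8.94 and 11.1 CPM and at 14.1 and 10.3, and Eef1e1 at 8.78 and 10.6 CPM and at 11.5 and 8.28, with overlapping groups in both. By catalytic fold, the 9 class I genes had a median log2 fold change of 0.20 and the 10 class II genes one of 0.15, with both transgenic libraries above both WT libraries in 4 genes of each class (44.4% and 40%, against 17.6% of all genes).

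The mitochondrial enzymes had a median log2 fold change of 0.14, close to that of the cytosolic enzymes, but a wider range of -0.57 to 0.69. Their median lay 0.29 above WT in transgenic replicate 1, with 10 of 15 above, and -0.02 in replicate 2, with 7 of 15 above. Without transgenic replicate 1 the fitted median was -0.02. Lars2, the mitochondrial leucine enzyme gene on chromosome 9 (123366927 to 123462666), had 54.3 and 28.6 CPM in the WT pair and 73.8 and 60.0 in the transgenic pair. Both transgenic libraries lay above both WT libraries, but WT replicate 2 minus WT replicate 1 was -0.92 on the log2 scale. The fitted difference of 0.69 (log2, SE 0.34, edgeR adjusted p = 0.86) was 0.30 without WT replicate 2 and 1.22 without WT replicate 1. Tars2, for threonine, was at 18.4 and 20.2 CPM in WT, 31.3 in transgenic replicate 1 and 20.3 in replicate 2. Its fold change of 0.42 (SE 0.27) became 0.07 without transgenic replicate 1.

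Mars2, the mitochondrial methionine enzyme gene (chromosome 1, 55237177 to 55248470), was lower in both transgenic libraries. It was at 12.6 and 11.6 CPM in WT and at 6.37 and 9.95 in transgenic cells. The fitted difference of -0.57 (log2, SE 0.29, edgeR adjusted p = 0.86) went to -0.28 without transgenic replicate 1 and to -0.92 without replicate 2. Nars2, for asparagine, was at 8.83 and 7.98 CPM in WT and at 5.98 and 7.37 in transgenic cells (-0.33, SE 0.25). Aars2 was at 10.9 and 9.29 CPM in WT and at 12.4 and 12.2 in transgenic cells (0.28, SE 0.22), with the transgenic libraries close together. Fars2 was at 21.6 and 21 CPM and at 28.8 and 22.3, Yars2 at 9.05 and 8.33 CPM and at 10.9 and 9.19, and Vars2 at 62.3 and 58.7 CPM and at 69.6 and 63.1. In these 3 genes the groups were separated only narrowly by transgenic replicate 2. Cars2, Ears2 and Sars2 were above WT in transgenic replicate 1 and below both WT libraries in replicate 2, while Wars2, at 8.01 and 8.64 CPM in WT, was below them in transgenic replicate 1 only (5.30, against 8.52 CPM in replicate 2). The groups of Hars2, Iars2 and Rars2 overlapped, with log2 fold changes of -0.13, -0.13 and -0.04.

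The cytosolic and mitochondrial lists had similar medians. The cytosolic median minus the mitochondrial median was 0.04 in the fit. In single libraries, relative to the WT mean, it was -0.05 and 0.05 in WT and 0.02 and 0.07 in transgenic cells, a pooled SD within groups of 0.05. The ratio of summed cytosolic to summed mitochondrial CPM was 3.22 and 3.56 in WT and 3.49 and 3.37 in transgenic cells, so the mTOR Tg values lay between the WT values. Of the 14 amino acid activities with a single gene on each side (Eprs set beside Ears2), 6 had positive log2 fold changes in both compartments, 0 negative in both, 6 positive in the cytosol only and 2 positive in the mitochondrion only. The gap between the methionine enzymes was wider in both transgenic libraries. On the log2 scale Mars exceeded Mars2 by 1.66 and 1.85 in WT and by 3.0 and 2.28 in transgenic cells. With length offsets in the fit the log2 fold changes were 0.26 for Mars and -0.20 for Mars2, against 0.02 for Lars and 0.76 for Lars2. For cysteine, Cars exceeded Cars2 by 0.35 and 0.28 in WT and by 0.51 and 0.94 in transgenic cells. For leucine, Lars minus Lars2 was -0.48 and 0.23 in WT and -1.17 and -0.68 in transgenic cells.

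Genes that work beside the synthetases showed no common direction. Of 15 charging partners, 0 passed the test, 9 were positive (against 50.9% of all genes), 4 had both transgenic libraries above both WT libraries (26.7%, against 17.6%) and 3 had both below (20%, against 17%). The selenocysteine tRNA kinase gene Pstk was at 4.39 and 7.17 CPM in WT and at 9.46 and 7.61 in transgenic cells. The mitochondrial proline enzyme gene Pars2 was at 2.91 and 3.18 CPM in WT and at 4.02 and 4.21 in transgenic cells. Xpot, the tRNA export receptor gene, was at 98.0 and 115 CPM in WT, 70.8 in transgenic replicate 1 and 122 in replicate 2. The genes with both transgenic libraries below WT were the D-aminoacyl-tRNA deacylase genes Dtd1 (14.8 and 14.0 CPM in WT, 13.4 and 12.8 in transgenic cells) and Dtd2 (11.1 and 10.0, then 9.37 and 8.42). The other was Mtfmt, the mitochondrial methionyl-tRNA formyltransferase gene, at 8.40 and 8.89 CPM and at 8.39 and 7.90, with groups that nearly touched.

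Transcript length moved with the level in transgenic replicate 1. Over all tested genes, those in the shortest quartile of exon length (204 to 2078 bases) stood at a median of 0.44 over WT here, and those in the longest (4979 bases and more) a median of -0.53. In transgenic replicate 2 the 4 quartile medians were all 0. Of the 35 synthetase genes, 6 fell in the shortest quartile and 3 in the longest. Across genes, exon length and the level in transgenic replicate 1 had a Spearman correlation of -0.31 over the 20 cytosolic genes, -0.48 over the 15 mitochondrial genes and -0.57 over 13116 genes, all read from one library. In transgenic replicate 2 the same correlations were 0.43, 0.06 and 0. With the trend of level with length removed library by library, the cytosolic and mitochondrial medians were 0.16 and 0.18 in transgenic replicate 1 and 0.05 and -0.02 in replicate 2. The corrected median of the free cytosolic enzymes was 0.38 in replicate 1 and that of the complex enzymes 0.08. In the fit with these length terms Cars was at 0.56 and Yars at 0.42. Mars2, whose single annotated exon block spans 11294 bases, went from -0.57 to -0.20, and Aars, at 5750 bases, from 0.23 to 0.46.

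**Figure D4:**
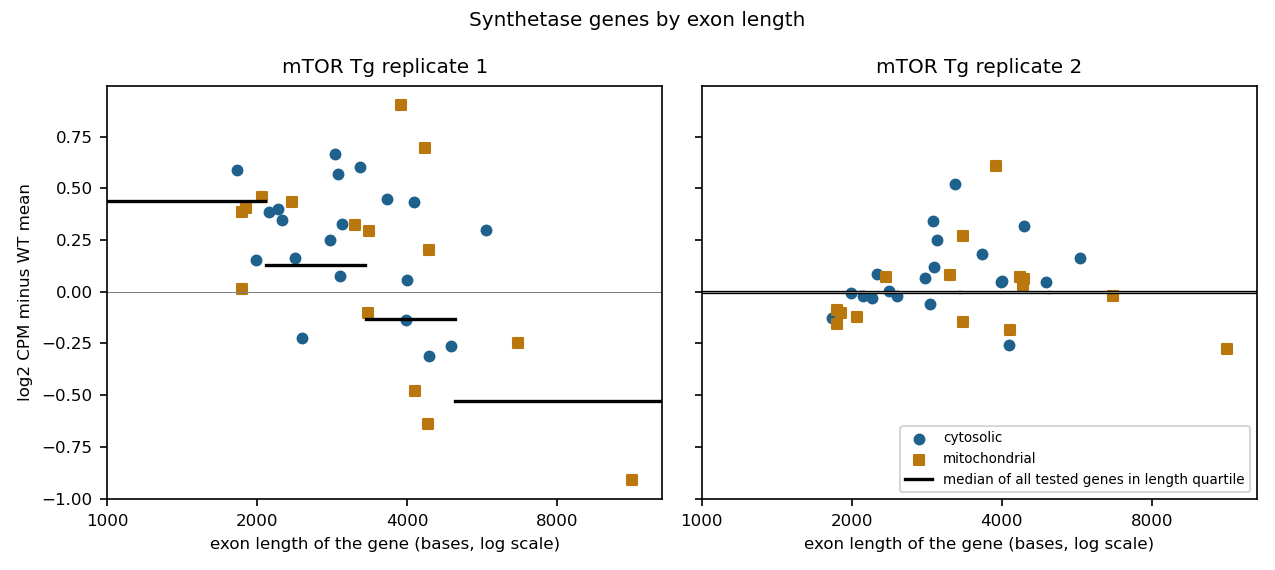
Log2 CPM minus the WT mean in each transgenic library (vertical axis) against exon length (log scale) for the cytosolic (circles) and mitochondrial (squares) synthetase genes; black bars are medians of all tested genes in each length quartile. The bars step down from 0.44 to -0.53 in transgenic replicate 1 and lie at 0 in replicate 2.

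Per kilobase of exon, most cytosolic genes were more abundant in WT than most mitochondrial genes, but the lists overlapped. Vars had the highest level at 30.2 and 32.0 CPM per kilobase, followed by Nars at 31.0 and 30, and the WT values of these genes overlapped. Wars at 27.2 and 29.6, Sars at 28.6 and 25.2 and Gars at 23.9 and 26.2 came next, each overlapping its neighbour. The highest mitochondrial gene was Vars2 at 14.1 and 13.3 CPM per kilobase, next to Mars at 13.6 and 14.1. The lowest cytosolic gene by the WT mean was Iars at 7.38 and 8.41. Besides Vars2, the mitochondrial genes Cars2 (11.3 and 12.3), Iars2 (9.16 and 9.63), Rars2 (9.40 and 9.03) and Fars2 (9.19 and 8.95) lay above Iars. Lars2, at 13.9 and 7.34, spread across the level of Iars, and Hars2 came below Iars at 5.66 and 4.80. The lowest of all were Nars2 at 2.13 and 1.92, Wars2 at 1.82 and 1.96 and Mars2 at 1.12 and 1.02, the last over its 11294 annotated exon bases.

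Some values rest on reads that the annotation cannot assign to one gene. Aars shares 1326 exon bases on the same strand with Exosc6, which had 0 counts in every library, and no source used here says how reads over shared bases were counted. Iars2 shares 2034 exon bases on the opposite strand with Rab3gap2, Hars and Hars2 share 195 at their adjoining starts, and Mars shares 68 with the stress gene Ddit3. Farsb shares 248 on the opposite strand (11.3% of its exon bases) with Sgpp2. The Sgpp2 gene was at 212 and 184 CPM in WT, 86.5 in transgenic replicate 1 and 211 in replicate 2. No source used here says whether the libraries keep strand, and reads from opposite strands in these stretches then cannot be told apart. Hars was at 32.5 and 32.7 CPM in WT and at 36.2 and 32.4 in transgenic cells, and Hars2 at 18.9 and 16.0 CPM and at 16.2 and 15.7. Iars shares a stretch of 1656 bases at 96.0% identity with the annotated gene Gm4849, which has no row in the count table.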

How the data were processed

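Per the labels, total RNA (RNeasy Mini) went into standard Illumina libraries. The authors deposited 1 table of whole-number read counts per gene symbol for the 4 libraries. The processing notes of the submitters list HISAT2, edgeR and mm10. No source used here names the counting program or its annotation. Columns were matched to samples by the names in the labels.

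The analysis used R 4.3.3 and edgeR 4.0.16. filterByExpr by group (minimum count 10) left 13306 genes with 99.9% of counts. Libraries were scaled with TMM factors (0.928 to 1.04). The genotypes were compared by the quasi-likelihood test (glmQLFit, glmQLFTest) with no other term and Benjamini-Hochberg adjustment over all tested genes. The standard error is the size of the log2 fold change divided by the square root of F. A prior count of 2 entered the log2 CPM of each library. A count of 3 corresponds to 0.137 to 0.165 CPM, and genes with 0 counts are given as 0. The labels name no separate animals, and p-values then reflect only how these samples vary, which may be technical. An exact permutation test of 2 against 2 libraries (two-sided) cannot go below 0.333. The code was tested on simulated counts.

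Alternatives were other scalings, filters, DESeq2 1.42.0, limma-voom (limma 3.58.1), a replicate block, length offsets (lowess, span 0.3) and leaving out each library. Positions, exon lengths (union of exons) and shared exons come from GENCODE M21 on GRCm38, which is mm10. Shared stretches were found with BLAST+ 2.17.0 (at least 100 bases and 95% identity). Promoter sequences are from RefSeq on GRCm38.p6, matched by symbol or synonym and position. Members, lists and the promoter motif were chosen with earlier results of these data known. All members may be named, and values by library are given for those whose groups do not overlap, the smallest p-values, Gars, Kars, Farsa, Farsb, Eprs, Wars, Hars and Hars2, with others chosen after their values were seen. Only some charging partners are given by value, and 1 of them and 1 promoter stretch are not reported here.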

Additional observations from a re-analysis of the deposited data

How the results depend on the processing

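Under the other scalings, both other filters, limma-voom and the length offsets, 0 genes were called, among them 0 synthetases. DESeq2 called 12 genes and the fit with the replicate block 37, with 0 synthetases in each. The labels do not say that a replicate number marks a shared animal or day, and the deviations of same-numbered libraries correlated at 0.071 over genes, so the block was not used. The block left the cytosolic and mitochondrial medians at 0.17 and 0.13. With 1 library left out, the count over all genes ranged from 11 to 6197 (299 without mTOR Tg replicate 1, 6197 without mTOR Tg replicate 2). Cytosolic calls ranged from 0 to 11 and mitochondrial calls from 0 to 6, the upper values without mTOR Tg replicate 2, where 45.5% of all genes were called. Such a fit holds a single library in 1 group, assumed to vary like the other group. The cytosolic median ranged from 0.05 to 0.31, the mitochondrial from -0.02 to 0.29, and their difference from 0.01 to 0.10. Over the scalings without a library left out, the cytosolic median ran from 0.11 (library size only) to 0.21 (upper quartile), and it was 0.11 with the length offsets, where the mitochondrial median was 0.03.

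The sign of small changes depended on the setting. With library size only, Iars and Tars were both at -0.01. With the length offsets Eprs was at 0.04, Gars -0.02, Hars -0.08, Lars 0.02, Cars2 -0.01, Iars2 0.13 and Sars2 -0.05. Leaving out 1 library gave ranges of -0.32 to 0.31 for Iars, -0.15 to 0.07 for Lars, -0.01 to 0.12 for Tars, -0.26 to 0.05 for Eprs, -0.13 to 0.59 for Farsa, -0.03 to 0.40 for Farsb, -0.01 to 0.15 for Hars, -0.02 to 0.39 for Rars, -0.26 to 0.43 for Vars, -0.06 to 0.67 for Wars, -0.11 to 0.41 for Cars2, -0.13 to 0.46 for Ears2, -0.16 to 0.39 for Sars2, -0.65 to 0.03 for Wars2 and -0.09 to 0.01 for Rars2. The cause was not tested.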
